A study of Mus musculus with 4 samples.

Results

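The subject is the mouse genes with a transcript whose genomic span, from first to last listed base, exceeded 500 kb. A gene entered when the table held at least 1 RefSeq row with End minus Start above 500000, and the row over that length with the highest mean over the 4 libraries stood for it. The rule found 214 genes of 25797, from 1582 of 87526 listed rows, and the other 25583 genes had no such row. The length rule uses no difference between the groups. The mean over both groups chose the row, and a gene could enter only if the table, which lists no transcript with a mean under 11.6, held its long row. The question is whether long genes shifted with the genotype label beside genes of similar level and shorter span.

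The libraries are the inputs, that is the total RNA before antibody enrichment, of an experiment on N6-methyladenosine (m6A) in mouse colon. Epithelial cells were shaken off the colon in EDTA and DTT with the ROCK inhibitor Y-27632, without treatment of the mice in the labels. The genotype labels are WT, with 2 libraries, and Ythdf1 KO, also with 2, a knockout of a cytoplasmic protein that binds m6A; the immunoprecipitated libraries were not analysed here. For the age, strain and sex of the mice and for the altered part of Ythdf1, the sources used here give nothing. Nor do the labels name the mouse behind each library, and every p-value is therefore about the spread of these samples alone, which may be technical.

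A gene body of this length takes RNA polymerase II many hours to transcribe, and nearly all of it is intron, so that the spliced mRNA is no longer than that of many short genes. Very long genes depend on elongation factors, on topoisomerases that relieve the torsion ahead of the polymerase, and on suppression of early polyadenylation sites within introns. Many of them encode adhesion proteins, receptors and synaptic scaffolds of neurons. Several, among them Fhit, Wwox and Macrod2, lie at common fragile sites, regions prone to breaks under replication stress.

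The promoters of 4 of these genes are shown first because the genes stand at the ends of the range reported here: Lpp and Gmds, which were abundant, Dmd, which has one of the longest spans, and St6galnac3, which had no read in either library labelled Ythdf1 KO. Each is the 250 bases before the listed start, from RefSeq's promoter sequences on GRCm38.p6, printed 5′ to 3′ on the gene's strand with CG dinucleotides in capitals.
Lpp, chr16:24393100-24393349, plus strand: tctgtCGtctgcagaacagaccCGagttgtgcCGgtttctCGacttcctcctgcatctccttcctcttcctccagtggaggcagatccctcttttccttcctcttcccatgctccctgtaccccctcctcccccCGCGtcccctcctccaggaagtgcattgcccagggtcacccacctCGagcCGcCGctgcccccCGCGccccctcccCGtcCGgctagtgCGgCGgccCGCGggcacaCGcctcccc
Gmds, chr13:32338545-32338794, minus strand: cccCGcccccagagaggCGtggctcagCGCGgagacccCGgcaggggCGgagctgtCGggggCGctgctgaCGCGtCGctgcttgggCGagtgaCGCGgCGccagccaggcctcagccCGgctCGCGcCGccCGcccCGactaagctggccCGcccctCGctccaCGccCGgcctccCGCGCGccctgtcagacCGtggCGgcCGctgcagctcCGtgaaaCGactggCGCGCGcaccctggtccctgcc
Dmd, chrX:82948620-82948869, plus strand: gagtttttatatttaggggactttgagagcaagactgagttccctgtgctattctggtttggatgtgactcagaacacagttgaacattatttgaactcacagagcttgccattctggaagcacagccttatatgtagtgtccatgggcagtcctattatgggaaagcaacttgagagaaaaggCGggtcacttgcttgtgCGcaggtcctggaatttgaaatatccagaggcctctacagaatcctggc
St6galnac3, chr3:153725134-153725383, minus strand: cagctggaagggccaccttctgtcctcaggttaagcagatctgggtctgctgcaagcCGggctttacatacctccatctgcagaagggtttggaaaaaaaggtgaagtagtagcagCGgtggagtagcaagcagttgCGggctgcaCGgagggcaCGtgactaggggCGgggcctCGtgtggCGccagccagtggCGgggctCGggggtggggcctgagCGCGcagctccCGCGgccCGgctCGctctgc
The Gmds promoter held 36 CG dinucleotides, that of Lpp 18, that of St6galnac3 16 and that of Dmd 2. A promoter entry existed for 166 of the 214 genes, and for 51 of them it began exactly at the listed start of the row used. Over those 51 the median was 13 CG dinucleotides in 250 bases and 54.9% held at least 10, beside a median of 6 and 37.8% over all 32851 promoters in the table. The 32851 were not limited to entries at the listed start of a row used, so these sets were chosen differently. The 11 with a mean of at least 1000 normalised reads had a median of 18, the 8 between 200 and 1000 one of 8.5, and the 32 under 200 one of 13.5. The count of CG dinucleotides was therefore in no order with the level of the gene.

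Spans had a median of 676.9 kb and ran up to 2270.6 kb for Ptprd; 172 genes lay between 500 and 1000 kb and 42 above 1000 kb. Of the 214, 212 were listed as protein-coding and 2 as long non-coding RNA, and the row used was a predicted RefSeq model (XM or XR) for 134. They lay on every chromosome except Y, from 5 on chromosomes 11 and 18 to 17 on chromosome 1. The genes just inside the limit were Edil3 at 501753 bases, Dock1 at 503042 and Samd12 at 503421; those just outside were Stpg2 at 496761, Dnm3 at 495878 and Ank3 at 493728. On the outside, Stpg2 was listed at 187, 17.2, 0 and 0 in WT 1, WT 2, Ythdf1 KO 1 and Ythdf1 KO 2, Dnm3 at 357, 3.03, 4.85 and 0, and Ank3, which anchors channels to the spectrin skeleton, at 6858, 4376, 3895 and 3705.

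The deposited values are size-factor-normalised read counts, and a value of 1.13, 1.01, 0.969 and 0.827 stood for 1 read in the order just given. With 1 row per gene the libraries held 21682841, 24572030, 25932347 and 30947337 reads, of which the long genes took 133715, 147818, 156243 and 170704. Ythdf1 itself (gene ID 228994, NM_173761.3) was at 1088, 775.4, 1752 and 1737, with a log2 difference of 0.92 ± 0.28 (SE) and an adjusted p = 0.758 in limma-trend, and the authors' deposited table gave q = 0.0145, higher. Both libraries labelled Ythdf1 KO lay above both WT libraries, so the RNA does not bear out the knockout label. As the altered part of Ythdf1 is not given, its RNA cannot decide whether the label is right, and directions here follow the labels alone. The 10 epithelial markers summed to 326211, 360526, 336446 and 398661. Markers of other cells of the gut wall were present at far lower sums, and Ythdf1 KO 2 had the lowest sum of each such list. The 15 listed of 16 leukocyte markers summed to 3418.6, 3034.9, 2765 and 1042.2, and Cd4 and Lyz2 were at 0 in both libraries labelled Ythdf1 KO. The 9 endothelial markers summed to 1209.4, 1332.7, 1042.2 and 496.3, the 16 muscle and fibroblast markers to 2997.1, 4654.3, 3049.1 and 2268.1, and the 17 listed of 18 neuron and glia markers to 1477.7, 1368, 1463 and 933.05. In the last list Prph was at 0 in both WT libraries and Vip in both others, and Syt1 is itself a long gene. In bulk RNA, fewer cells of a type and less RNA per cell cannot be told apart.

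The long genes were a small part of the RNA, at levels like those of the table as a whole: their median was 115.9 normalised reads, beside 120.7 over all genes. They took 0.617% of the signal in WT 1 (95% Wilson interval 0.613 to 0.62), 0.602% in WT 2 (0.599 to 0.605), 0.603% in Ythdf1 KO 1 (0.6 to 0.606) and 0.552% in Ythdf1 KO 2 (0.549 to 0.554). The intervals cover counting error only. Group means were 0.609 ± 0.0107% and 0.577 ± 0.036% (SD, n = 2 each), and Ythdf1 KO 2 was farther from the other 3 than these were from each other. Without it the difference between the groups was -0.0066 percentage points in place of -0.032. Of the 214 genes, 38 had a mean of at least 1000 normalised reads, 139 were under 200 and 45 under 50. All 4 libraries held reads for 151 of them, and 18, 7, 28 and 37 were at 0 in the 4 libraries in order, that is 8.41%, 3.27%, 13.1% and 17.3%. Over all genes the shares at 0 were 14.1%, 13.1%, 20.3% and 19.8%.

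No long gene passed the test of the label. In limma-trend on log2(value + 1), 0 of the 208 long genes that passed the filter (2 or more libraries with a value of 1 or higher) had a Benjamini-Hochberg adjusted p under 0.05, beside 0% (0 of 23116) of all genes tested. The 6 that failed it were Cntnap2, Hpse2, Negr1, Nrg3, Skint5 and 1700007B14Rik, each with reads in 1 library or, for Hpse2 and Negr1, a second library at 1 read. At an unadjusted p under 0.05, 3 were higher in the libraries labelled Ythdf1 KO, against 1.93% of all genes tested, and 5 were lower, against 3.53%, so both shares are near the background; the 8 together stand beside 5.45%. edgeR on recovered reads called 0, with 9 at an unadjusted p under 0.05. DESeq2 on the same reads called 10 of the long genes, 3 higher and 7 lower, where its share over all genes was 6.48%. The authors' deposited table gave 3 higher and 5 lower at q under 0.05, against 1.24% and 3.23% of all genes, or 8 in all against 4.47%; at q under 0.01 it gave 6, against 1.86%.

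The long genes lay more to the lower side than the table as a whole, and their median was farthest from that of shorter genes among those with few reads. Among the 208, 72 had a higher and 136 a lower mean log2 value in the libraries labelled Ythdf1 KO; 65.4% were thus lower, beside 54.9% of all genes tested. Their median log2 difference was -0.36, with quartiles at -1.93 and 0.22, beside -0.09 over all genes tested; without the filter, over all 214, it was -0.39 beside -0.12. Both libraries labelled Ythdf1 KO lay above both WT libraries for 22 of the 214, or 10.3%, against 13.2% of all genes, and below both for 58, or 27.1%, against 19.2%. Leaving out Ythdf1 KO 2, 53 lay above and 89 below, 24.8% and 41.6% beside 29.4% and 33.1% of all genes. The value was at 0 in both libraries labelled Ythdf1 KO for 12 of the 214, against 10.2% of all genes in the table, and in both WT libraries for 2, against 4.26%.

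At low counts shorter genes also lay to the lower side, so the long genes were set beside shorter genes of the same level. Among the 75 long genes with a mean of at least 200, all of which were tested, the median log2 difference was -0.03, with 34 higher and 41 lower, beside 0.04 for 10727 shorter genes. The share lower was 54.7%, beside 45.9% of the shorter genes. In that range 10 lay above (13.3%, against 19.8% of the shorter genes) and 14 below (18.7%, against 15.2%). Among the 139 under 200, of which 133 were tested, the median was -1.02, with 38 higher and 95 lower, beside -0.58 for shorter genes. The share lower was 71.4%, beside 62.7% of the shorter genes. There 12 lay above (8.63%, against 8.43%) and 44 below (31.7%, against 22.0%). Without the filter these medians were -1.10 and -0.79.

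In finer classes of level the same order held. With a mean under 50 the medians were -1.11 for long and -0.58 for shorter genes, from 50 to 200 they were -0.98 and -0.57, from 200 to 1000 -0.19 and -0.04, from 1000 to 5000 -0.01 and 0.08, and above 5000, with 5 long genes, 0.01 and 0.08. The difference of each long gene from the median of shorter genes of its class had a median of -0.19, and 85 lay above and 123 below their class median. Within the class from 50 to 200, the medians from the shortest to the longest of 6 span classes were -0.55, -0.59, -0.64, -0.87, -0.96 and -0.99, over 4352, 1933, 446, 154, 69 and 25 genes. Above 5000 the medians also fell at each step, at 0.11, 0.07, 0.05, 0.03 and 0.01, the last over 5 genes of 500 to 1000 kb. From 1000 to 5000 they were 0.080, 0.083, 0.081, 0.055, -0.0070 and -0.20, the last over 4 genes. The remaining classes showed no steady order. Under 50 the medians were -0.55, -0.64, -0.63, -1.80, -1.10 and -2.52, the last over 9 tested genes. From 200 to 1000 they were -0.0046, -0.05, -0.18, -0.02, -0.25 and 0.40, the last over 2 genes. Without matching by level, genes over 1000 kb had a median of -0.66 and those from 500 to 1000 kb -0.31. The longer ones also had fewer reads, at a median level of 81.8 normalised reads beside 130. Of the genes over 1000 kb, 7.14% lay above and 21.4% below. From 500 to 1000 kb these shares were 11.0% and 28.5%, and over all genes 13.2% and 19.2%.

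**Figure D1:**
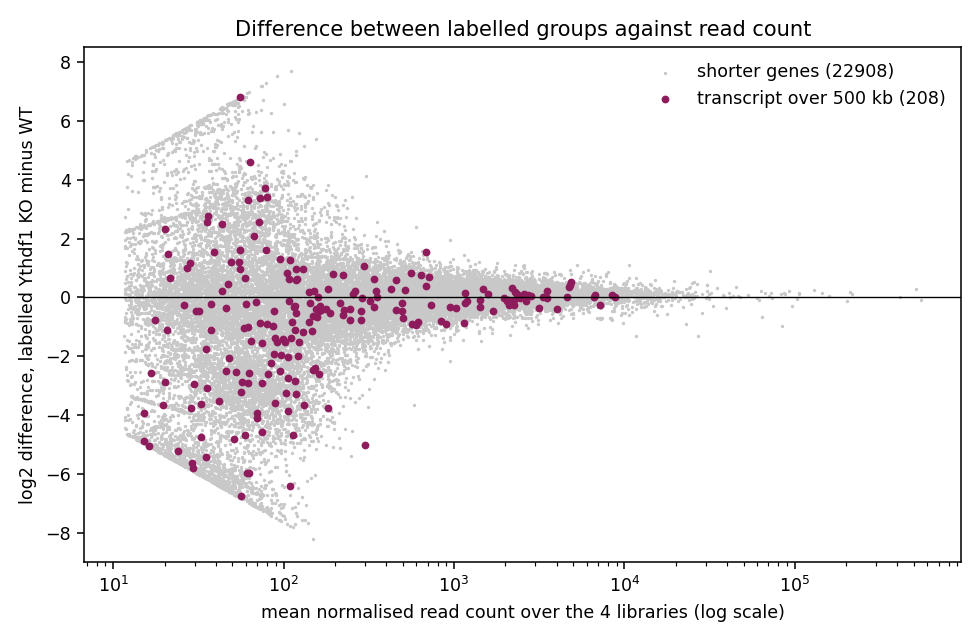
Log2 difference on the log2(value + 1) scale, labelled Ythdf1 KO minus WT, against the mean normalised read count over 4 libraries (log axis), with 1 point per gene. The 75 long genes with a mean of at least 200 centre near 0 (median -0.03), and those under 200 spread widely with a median of -1.02.

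The difference from shorter genes depended on which libraries entered. For each gene, the log2 value in a library was set against the gene's own mean over the 4, and the median of these deviations was taken over the long genes. Under 200 normalised reads, the medians of the long genes were 0.42 and 1.11 for WT 1 and WT 2, then 0.09 and -0.56 for Ythdf1 KO 1 and 2. Shorter genes of that level stood at 0.73, 0.67, -0.19 and -0.18. The long genes therefore stood below the shorter ones in WT 1 and Ythdf1 KO 2 and above them in WT 2 and Ythdf1 KO 1, and the 2 libraries labelled Ythdf1 KO differed. At 200 and above the long genes were at 0.07, 0.01, 0.08 and -0.08, and the shorter ones at -0.01, 0.01, 0.02 and 0.05.

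Without Ythdf1 KO 2 the difference from shorter genes of the same class was 0.01 in place of -0.19, with a median of -0.07 over the long genes, and among those under 200 the medians of long and shorter genes were -0.30 and -0.31. Without Ythdf1 KO 1 the difference was -0.33. Without WT 1 it was -0.13 and without WT 2 -0.10, although without WT 2 the medians under 200 were -0.87 for long and -0.99 for shorter genes. Leaving out either Ythdf1 KO 2 or WT 2 thus ended or turned the order under 200. Where Ythdf1 KO 2 was left out the sign over all levels turned, and the value over all levels stayed below 0 without each of the other 3 libraries in turn. The leukocyte, endothelial, muscle and fibroblast, and neuron and glia markers had median log2 differences of -1.19, -0.67, -0.60 and -0.52. Their part in the difference was not tested.

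**Figure D2:**
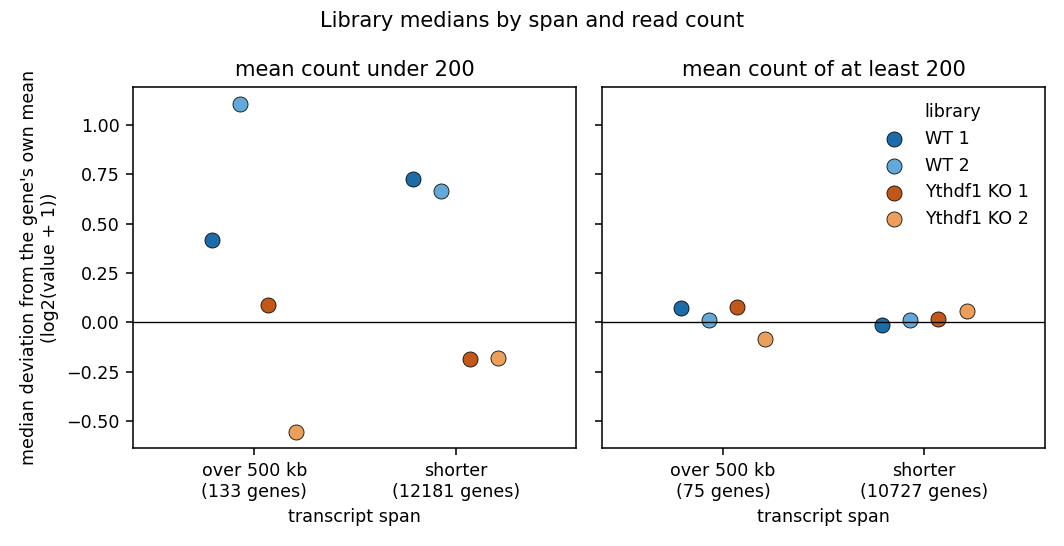
Median deviation of log2(value + 1) from each gene's own mean, per library, for long and shorter genes under 200 normalised reads and from 200 upward. Under 200, the long genes stand at 0.42 and 1.11 (WT 1 and 2), 0.09 and -0.56 (Ythdf1 KO 1 and 2); from 200 upward every median lies between -0.08 and 0.08.

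The long rows seem to share reads with shorter isoforms of the same gene, since their values were often similar. How reads were assigned to transcripts is not given. A row of 500 kb or less was also listed for 124 of the 214 genes and none for 90. For 39 genes the most abundant row was a shorter one, which in Cdh12 and Unc13c only equalled the long row. The best shorter row had at least 90% of the long row's mean for 55 genes and less than 50% of it for 14. Mecom, a zinc finger transcription factor, had a mean of 3344 on its long row and 3486 on a row of 62.2 kb, so these reads cannot be assigned to the long isoform. Dmd had 454.1 on the row of 2256.2 kb and 486.9 on one of 156.75 kb, and Arhgap15, a Rac GTPase-activating protein, 28.7 on the long row and 436.9 on one of 214 kb. The Gm37013, Gm38666 and Gm38667 rows on chromosome 18 overlap on the same strand, as do Schip1 and Gm21949 on chromosome 3, and their reads cannot be told apart.

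The gene with the smallest p toward the libraries labelled Ythdf1 KO was Cpq (gene ID 54381, NM_018755.2, chromosome 15, 33083129 to 33594552, plus strand in mm10), which encodes carboxypeptidase Q, a secreted and lysosomal peptidase. It had normalised read counts of 342 and 350.3 for WT 1 and WT 2, then 1068 and 963 for Ythdf1 KO 1 and 2. The groups did not overlap, and within each group the libraries were close to each other. The means were 346 ± 6.23 in WT and 1016 ± 74.6 in the other group (SD, n = 2 each), a ratio of 2.94. On the log2 scale Cpq differed by 1.55 ± 0.34 (SE), with an adjusted p = 0.758 from limma-trend, which does not pass. The q in the authors' deposited table was 2.36e-05, and DESeq2 called it. Both listed transcripts of Cpq had the same values.

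Foxp1, a forkhead transcription factor (597 kb), was the other abundant gene among those with an unadjusted p under 0.05. It stood at 4279 and 3779 for WT 1 and WT 2, then 5288 and 6182 for Ythdf1 KO 1 and 2, a ratio of 1.42. Both libraries labelled Ythdf1 KO lay above both WT libraries, with a log2 difference of 0.51 ± 0.17 (SE) and an adjusted p = 0.758 in limma-trend. Ctnnd2, a delta-catenin that binds cadherins at synapses, had no read in WT and 124 and 97.6 in Ythdf1 KO 1 and 2. It passed the filter through Ythdf1 KO 1 and 2 alone. Against a floor of 3 reads per library it was at least 34.6-fold higher there, with an adjusted p = 0.758 in limma-trend. Another Ctnnd2 row, of 571.69 kb, was at 0, 16.2, 124 and 70.3, so the gene had reads in WT 2. The authors' deposited table gave q = 0.0328 for Foxp1 and 0.00358 for Ctnnd2.

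Robo2, a receptor for the guidance protein Slit, Dock1, an activator of the GTPase Rac, and Esrrg, an orphan nuclear receptor, followed, each with libraries of the groups apart. Robo2 was at 570.3, 518, 904 and 858 in WT 1, WT 2, Ythdf1 KO 1 and Ythdf1 KO 2, a ratio of 1.62. Dock1 was at 4075, 4213, 5839 and 4774 in the same order, a ratio of 1.28. Esrrg was at 343, 448, 553 and 888, with a wider gap between the 2 libraries labelled Ythdf1 KO than between the 2 WT libraries. Their unadjusted p values were 0.0693, 0.0927 and 0.0930 in limma-trend, and no adjusted p passed.

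Toward WT, 4 of the 5 genes at an unadjusted p under 0.05 had 0 or 1 read per library labelled Ythdf1 KO and modest counts in WT. These 4 passed the filter through the WT libraries alone, since 1 read is worth 0.969 or 0.827 in the others, under the filter's value of 1. Agbl4 and Ctnna3, given below, also passed through WT alone. St6galnac3 (gene ID 20447, NM_011372.2, chromosome 3, 153202509 to 153725133, minus strand), a sialyltransferase that acts on glycolipids and O-glycans, was at 151 and 73.7 for WT 1 and WT 2, then 0 and 0 for Ythdf1 KO 1 and 2. With no read in either of the last 2 libraries, it was at least 41.7-fold lower there against a floor of 3 reads per library, with an adjusted p = 0.758 in limma-trend and q = 0.00276 in the authors' deposited table. The gene itself was not silent: its row of 116.3 kb was at 186, 200.9, 27.1 and 88.5 in the same order, below in both but not absent. The long row's fold therefore belongs to that isoform and not to the gene.

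Sntg1, a gamma-syntrophin of the dystrophin complex, was at 361, 71.7, 0.969 and 0.827. It thus had 391 recovered reads in WT and 2 in the other libraries, a ratio of 233 once the reads are scaled by library, with a counting interval from 64.2 to 1933, and the WT libraries were themselves far apart. Nkain3, which binds the sodium pump, was at 84.5, 163, 0.969 and 0.827, and Cntnap5c, a contactin-associated membrane protein, at 153, 89.9, 0.969 and 0.827. Each of these 3 had exactly 1 read in each library labelled Ythdf1 KO and at least 71.7 normalised reads in each WT library. Cntnap5c was not silent as a gene, since its row of 558.14 kb was at 0, 30.3, 76.6 and 0, a higher value in Ythdf1 KO 1 than in any other library. Each of the 3 had an adjusted p of 0.758 in limma-trend, and the authors' deposited table gave q = 0.000130, 0.00289 and 0.00299.

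Mctp1, a membrane protein with C2 domains that bind calcium, was at 692, 372, 132 and 0.827, so that the groups were apart mainly through Ythdf1 KO 2, where it had 1 read. It was the only long gene to pass an adjusted p under 0.05 in limma-trend when a library was left out, at 0.0241 without Ythdf1 KO 1. There the labelled KO arm is 1 library, assumed to vary like the WT libraries. Agbl4, a carboxypeptidase that trims glutamate chains from tubulin, was at 80.03, 37.4, 0 and 0, at least 21.8-fold lower. Rgs6, which speeds the GTPase of G proteins, was at 165, 36.3, 1.94 and 1.65, and the authors' deposited table gave q = 0.0284. Ctnna3, an alpha-catenin best known from heart, was at 4.51, 126, 0 and 0, so its level rests on WT 2 alone.

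The other listed transcripts of these genes mostly lay on the same side, although isoforms seem to share reads and cannot be taken as independent. Both libraries labelled Ythdf1 KO lay above both WT libraries on 23 of 23 rows of Robo2, 13 of 13 of Esrrg and 24 of 25 of Foxp1. They lay below on 12 of 12 rows of Sntg1, 14 of 14 of Mctp1, 10 of 10 of Rgs6 and 5 of 5 of Nkain3. In other genes the row used decided the order: 7 of 16 Dmd rows lay above and 9 overlapped, 32 of 54 Kcnma1 rows lay below and 22 overlapped, 14 of 23 Etl4 rows lay below and 9 overlapped, and of 2 Gmds rows 1 lay above.

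**Figure D3:**
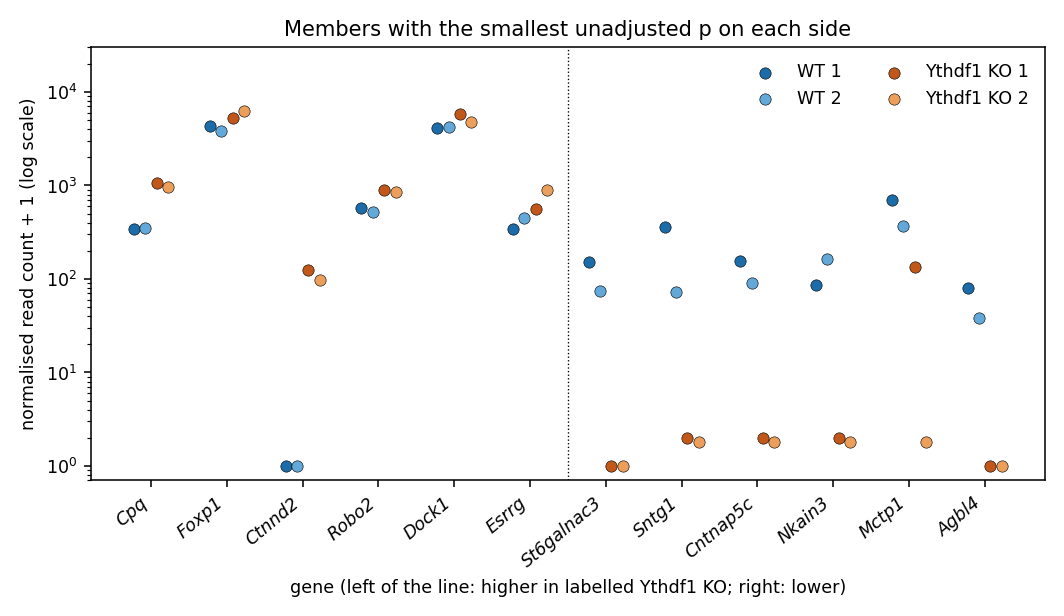
Normalised read counts in each of the 4 libraries (axis of log type, with 0 shown) for long genes with the smallest p in each direction. Cpq and Foxp1 lie higher in both libraries labelled Ythdf1 KO, and St6galnac3, Sntg1, Nkain3 and Cntnap5c are at 0 or 1 read there.

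The cytoskeletal, trafficking and polarity scaffolds held several of the long genes with the most reads, and Lrba, Lpp and Vps13b overlapped between the groups. Lrba, a BEACH-domain protein of vesicle traffic, was at 8106, 9491, 7602 and 10152, Lpp, a LIM protein of focal adhesions, at 6371, 6699.8, 6065 and 7765, and Vps13b, a lipid transfer protein of the Golgi, at 6984, 6285, 6483 and 6907. Their log2 differences were 0.00 ± 0.19, 0.07 ± 0.17 and 0.01 ± 0.15 (SE), each smaller than its error. Of 32 scaffold genes, 11 were higher and 21 lower, and the median was -0.25. Of these 4 lay above (12.5%) and 10 below (31.2%), beside 13.2% and 19.2% of all genes. Their median level was 172 normalised reads, and of shorter genes of 50 to 200 9.89% lay above and 25.2% below. The later lists of long genes, except transcription factors and chromatin proteins, also had median levels from 50 to 200. Among the scaffold genes Ctnnd2 and Sntg1 had an unadjusted p under 0.05 in limma-trend, and none passed the adjusted test.

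Adhesion proteins, guidance receptors and synapse organisers were the largest group, with 57 listed and 54 tested. Of these 17 were higher and 37 lower. There were 7 above (12.3%) and 14 below (24.6%), beside 13.2% and 19.2% of all genes and 9.89% and 25.2% of shorter genes of 50 to 200. The median was -0.61 at a median level of 91.0 normalised reads, beside -0.57 for shorter genes of 50 to 200 and -0.09 over all genes tested; Cntnap5c was the 1 with an unadjusted p under 0.05. Their most abundant members are receptor tyrosine phosphatases. Ptprk, found at epithelial cell contacts, was at 3559.5, 4598, 4537 and 6583, Ptprd at 4341, 4603, 6218 and 3230.1, and Ptprg at 3044, 1935, 2619 and 2696. In Ptprd the 2 libraries labelled Ythdf1 KO were the highest and the lowest of the 4. Sema6d, a transmembrane semaphorin, was at 2058, 2519, 2690.3 and 1711, also overlapping.

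Receptors and ion channels were split evenly. Of 22, 11 were higher and 11 lower, 2 lay above (9.09%) and 6 below (27.3%), beside 13.2% and 19.2% of all genes, and the median was 0.04, with none at an unadjusted p under 0.05. Kcnma1, the large-conductance potassium channel that secretes potassium in colon, was below in both libraries labelled Ythdf1 KO, at 1491, 1667, 1251 and 1295. The adjusted p in limma-trend was 0.816, for a log2 difference of -0.31 ± 0.24 (SE). Cacna1c, the pore of the L-type calcium channel, was at 303, 323, 263 and 509. The ryanodine receptors Ryr3 and Ryr2, calcium release channels, were at 269, 468, 186 and 435 and at 167, 217, 128 and 154.

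Among 17 transcription factors and chromatin proteins, 8 were higher and 9 lower, and the median was -0.11; 4 lay above (23.5%) and 3 below (17.6%), beside 13.2% and 19.2% of all genes. Foxp1, given above, was the 1 with an unadjusted p under 0.05. Auts2, a partner of Polycomb complexes, was at 5053, 4004, 4266 and 2695, with Ythdf1 KO 2 the lowest. Mecom was at 3739.9, 2954, 3323 and 3358, overlapping, and Ppargc1a, a coactivator of mitochondrial genes, at 2012, 1865, 2802 and 2108, above in both.

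The list of RNA-binding and RNA-processing proteins held 6 long genes, 1 higher and 5 lower, with 0 above (all genes 13.2%), 1 below (16.7%, all genes 19.2%) and a median of -0.36. Celf2, a splicing regulator, was at 363, 182, 466 and 135, and Adarb2, an RNA editing family member, at 216, 221, 461 and 121. Rbms3, which binds single-stranded RNA, was at 311, 155, 212 and 175. Rad51b, at 126, 137, 155 and 52.9, stands in the list although it is a recombination protein. In Celf2 and Adarb2 the 2 libraries labelled Ythdf1 KO were the highest and the lowest of the 4.

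Enzymes and signalling proteins numbered 37, with 14 higher and 23 lower, 4 above (10.8%, all genes 13.2%) and 11 below (29.7%, all genes 19.2%), a median of -0.31, and Cpq, St6galnac3 and Nkain3 at an unadjusted p under 0.05. Gmds, the enzyme that starts the synthesis of GDP-fucose, the donor for fucose on mucins, was at 3191, 3283, 4157 and 3364, slightly above in both libraries labelled Ythdf1 KO. Its log2 difference was 0.21 ± 0.19 (SE). Mgat4c, a glycosyltransferase of the N-glycan branching family, was at 2857, 4122, 3478 and 2080.3. Atrnl1, a membrane protein related to attractin, was at 8606, 7623, 9581 and 7834. In a group of 43 genes on none of these lists, 40 were tested, 10 higher and 30 lower, with 1 above (2.33%, all genes 13.2%), 13 below (30.2%, all genes 19.2%) and a median of -0.46. Etl4 was the most abundant of those below, at 8049, 7708, 6670.1 and 6451, with a log2 difference of -0.26 ± 0.14 (SE).

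Of 28 long genes known from common fragile sites, 26 were tested, 8 higher and 18 lower, with 5 above and 5 below (17.9% each, beside 13.2% and 19.2% of all genes) and a median of -0.31. Fhit, a diadenosine hydrolase at the most fragile human site, was at 34.9, 52.5, 32.0 and 0, and Macrod2, which removes ADP-ribose from proteins, at 227, 52.5, 112 and 72.0. Lrp1b, an endocytic receptor, was at 80.03, 63.6, 52.4 and 78.6, and Cntnap2, a neurexin-related protein of axons, had reads in WT 1 alone, at 74.4. None of the first 3 was called by limma-trend, edgeR, DESeq2 or the authors' deposited table, and Cntnap2 did not pass the filter. Dmd, which links the cytoskeleton to the matrix in muscle, was at 413, 310.0, 655 and 438, above in both libraries labelled Ythdf1 KO with an adjusted p = 0.816 in limma-trend. Pard3b and Large were at 2449, 2679.5, 3722 and 1960.4 and at 1129, 1334, 1379 and 823, and Exoc4 of the exocyst at 1306, 1149, 941 and 1373.

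The factors that act on long transcripts, none of them a long gene itself, were taken as a list. All 45 listed elongation factors and topoisomerases were tested; 28 were higher and 17 lower, 9 of the 45 lay above and 4 below (8.89%), none had an unadjusted p under 0.05, and the median log2 difference was 0.09. Genes of 500 kb or less with 1000 to 5000 normalised reads, the range of this list's median level, had 24.2% above, 11.7% below and a median of 0.08, so the list stood near the background of its level. Sfpq, an RNA-binding protein needed for transcription of long genes in neurons, was at 13153, 10605, 12165 and 12165 in WT 1, WT 2, Ythdf1 KO 1 and Ythdf1 KO 2. Aff1, a scaffold of the super elongation complex, was at 6787, 7587, 8428 and 7172, overlapping like Sfpq. Cdk13, which phosphorylates the polymerase during elongation, was at 5073, 4358, 5534 and 5430, above in both libraries labelled Ythdf1 KO.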

How the data were processed

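RNA of 4 input libraries was analysed, 2 labelled WT and 2 labelled Ythdf1 KO. The submitters' processing notes name MACS2 2.1.0, HOMER 4.10, deepTools 3.3.0, Bowtie2 2.2.5, CASAVA 1.8 and SAMtools 1.3.1, in no stated role, and mm10; for the counting program, its use of strand and the annotation version the sources used here give nothing, so reads of overlapping or antisense genes may not be told apart. The signal that the authors deposited per transcript is a normalised read count: 100% of the values in each library were whole multiples of 1 read within 0.001. Per the file headers, the authors also deposited p-values, q-values and the log2 of the fold change.

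Values were taken 1 row per gene: the long row for the 214 genes, the most abundant for others. Genes that reached a value of 1 in 2 or more libraries were fitted as log2(value + 1), a scale that understates the change of low genes, in limma-trend (limma 3.58.1, R 4.3.3, robust), with the label as the only term and Benjamini-Hochberg adjustment over all 23116 genes tested. The filter did not treat the groups alike, since 1 read reached a value of 1 in WT but not in the libraries labelled Ythdf1 KO. The unit had not been listed by name in the plan. edgeR 4.0.16 and DESeq2 1.42.0 on recovered reads were alternatives, as were other pseudocounts, filters, span limits and rows per gene, quantile normalisation, a replicate block and leaving out each library. The fit was tested on simulated data in which only genes with more than 200 reads on average were changed. That test does not cover changes in genes with fewer reads, where 139 of the 214 long genes lie. Named genes were those with the highest mean, overall and in each role list, the longest span, the smallest p in each direction, no read in a group, a place beside the span limit, or a call in the authors' table. The long genes and the lists were chosen with earlier results of these data known. No p was computed over a list.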

Additional observations from a re-analysis of the deposited data

How the results depend on the processing

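The 4 libraries, with 2 per group, and the low counts limit what can be seen. The count of long genes at an adjusted p under 0.05 was 0 in limma-trend, 10 in DESeq2 and 0 to 1 when a library was left out. The count at an unadjusted p under 0.05, 8 in the main setting, was 34 in DESeq2, 4 with a mean of at least 50, 5 with a pseudocount of 0.5, 19 with transcripts summed, 0 with a span over 1000 kb (53 genes), 25 with a span over 300 kb (542 genes) and 3 to 25 when a library was left out. With the replicate block it was 14 and 0 were called. Whether the replicate numbers pair the libraries is not given. The correlation of the 2 differences within groups was -0.00798 over all genes tested and 0.0225 over those with a mean of at least 500. It cannot decide whether libraries of the same number were handled together. The median log2 difference, -0.36, was -0.17 after quantile normalisation, -0.83 with a span over 1000 kb and -0.39 to -0.070 when a library was left out. Quantile normalisation also moved the median over all genes tested, from -0.09 to 0.0007. With it the difference from shorter genes of the same level was -0.18, beside -0.19 in the main setting. The difference from shorter genes of the same level was -0.36 with transcripts summed and -0.12 in both DESeq2 and edgeR. It was -0.087 with a span over 300 kb and -0.33 with a span over 1000 kb. When a library was left out it ran from -0.33 to 0.013, and it turned its sign, to 0.013, without Ythdf1 KO 2. Long genes lying above numbered 62 of 542 with a span over 300 kb and 6 of 53 over 1000 kb. Those below numbered 129 and 12. Over all genes in the main setting 13.2% lay above and 19.2% below. Leaving out each library, chosen after seeing the data, gave 44 to 53 above (20.6% to 24.8%) and 89 to 102 below (41.6% to 47.7%). Over all genes these shares were 24.1% to 29.6% and 32.7% to 36.8%, where fewer libraries make an overlap less likely. The difference in the share of signal, -0.032 percentage points, was -0.060 with transcripts summed and -0.058 to -0.0066 when a library was left out. At q under 0.01 the authors' deposited table gave 6 in place of 8. The causes of these changes were not tested. Of 683 alternatives for single named genes, 9 newly passed the threshold in DESeq2, and 45, over 21 of 46 genes, had the other sign. A move by more than the standard error was counted only for genes with the larger p values in the main fit, and 28 alternatives moved so. For genes with small p values only the sign and the call were compared, so 28 is not a count over all 683. A fit without 1 library leaves an arm with a lone library, assumed to vary like the other arm.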
